A study of Mus musculus with 6 samples.

Results

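Chromatin accessibility was examined at 8 genes of thyroid and corticosteroid hormone response in nuclei of the neonatal mouse heart. The genes were the thyroid hormone receptors Thra and Thrb, the deiodinases Dio2 and Dio3, the glucocorticoid receptor gene Nr3c1, the mineralocorticoid receptor gene Nr3c2, the corticosteroid-activating enzyme gene Hsd11b1 and the receptor co-chaperone gene Fkbp5. They are 8 of the 21951 protein-coding genes of the GENCODE M21 annotation. Every peak of the 6 libraries that overlapped a gene body or the 10 kb on either side of it was taken, and overlapping peaks of different libraries were merged. This gave 118 regions of the 169881 regions in the whole series, with 52 to 86 peaks at the 8 genes per library. Regions were assigned to the genes by position, without use of a measured value.

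The libraries were made by Omni-ATAC-seq, in which the Tn5 transposase inserts adapters into accessible DNA, from 50000 nuclei each. All hearts were taken at postnatal day 1 (P1), and all nuclei were first purified through a 2.2 M sucrose cushion. The 2 Input libraries came from wild-type hearts (C57BL/6J) and received no further enrichment. The 2 Myc libraries came from Nkx2-5 Cre/+; R26RSun1-Myc-Egfp/+ hearts, in which cells of the Nkx2-5 Cre lineage carry a Myc-tagged SUN1 protein on the nuclear envelope, and these nuclei were captured with a Myc antibody and magnetic beads (MAN-IP). That lineage includes cardiomyocytes, smooth muscle cells and endothelial cells, and so does not mark a single cell type. The 2 PCM1 libraries were labelled as wild type, and their nuclei were captured with an antibody to PCM1, a protein at the nuclear envelope of cardiomyocytes. By the labels, genotype and antibody both differ between Myc and the other groups, and their effects cannot be told apart. The labels name the libraries of a group as independent biological replicates without giving the number of hearts pooled. The p-values below rest on 2 such libraries per group. Their spread was estimated over the 3 groups together and drawn toward that of regions of similar signal over the genome. A call can therefore stand where the 2 libraries of a group differ widely at that region.

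Thyroid hormone and glucocorticoids rise in the blood around birth, and both act on the maturation of the heart. Each hormone binds nuclear receptors that bind DNA and recruit coactivators or corepressors. The amount of active hormone inside a cell is also set locally, for thyroid hormone by deiodinases that make or destroy triiodothyronine, and for corticosteroids by an enzyme that regenerates the active steroid from its inert keto form. Heat shock protein complexes hold steroid receptors ready to bind hormone, and the co-chaperone FKBP51, encoded by Fkbp5, lowers that binding and is itself induced by glucocorticoids.

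The peak lists held between 75336 and 131500 peaks per library. Depth differed most within the Input group. The genome-wide background pileup of Input 1 was 4.38 times that of the shallowest library, PCM1 2, and that of the other 4 libraries was 1.08 to 1.6 times. Sequence reads from a transgene map to its native gene, and peaks whose summits lay in coding exons of Sun1 were therefore counted as a check of genotype. Of the 14 regions at Sun1, 7 had no peak in Input, and the Myc libraries had peaks at 4 of the 7 each. These 7 were picked for having no peak in Input, so they give no check of the Input label. The PCM1 libraries, although labelled as wild type, had peaks at 3 and 7 of them. The strongest of these peaks ranked at 57.0 and 55.5 in Myc and higher, at 86.5 and 79.1, in PCM1 (percentile within the library). The PCM1 libraries thus went against their label. The genotype of the PCM1 hearts is therefore uncertain. Myc and PCM1 may share the transgene, and PCM1 and Input may differ in genotype as well as in capture, which cannot be told apart. The comparison of Myc with Input is therefore also given from the Input and Myc libraries alone. Defining cardiomyocyte genes had a peak in every library (12 of 12). The median rank of their strongest peaks was 97.1 and 96.1 for Input, 91.6 and 92.6 for Myc and 96.8 and 96.6 for PCM1, where 100 is the strongest peak of a library. Fibroblast genes had median ranks of 80.2 and 63.9 for Input, 74.4 and 77.4 for Myc and 62.4 and 53.5 for PCM1. Single fibroblast genes ranged from no peak to a rank of 97.4. Immune genes stood at 62.4 and 52.3, 58.1 and 63.8, and 36.6 and 45.2, and differed widely. The macrophage gene Adgre1 had no peak in any library, Ptprc none in PCM1 1 and Lyz2 none in Myc 2 and PCM1 2. Across libraries, Cd68 ranked at 99.15 to 99.85, Cx3cr1 at 97.26 to 98.15 and Spi1 at 92.0 to 97.7. Csf1r (35.6 to 63.1) and C1qa (3.55 to 57.8) lay lower. The Spi1 ranks equal those of the cardiomyocyte gene Mybpc3 in every library. The medians ranged from 82.2 to 89.9 for endothelial, from 69.9 to 88.3 for smooth muscle and pericyte and from 62.0 to 76.0 for epicardial genes.

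The 8 genes held very different numbers of regions. Peaks were found at 7 of the 8 in every library, and Dio3 was the exception. Thra had 13 regions with 10 of them present in all 6 libraries, although its gene body spans only 28.4 kb, and it held 26.9 regions per 100 kb of window. The regions from +22.8 to +34.9 kb, however, lie nearer to a transcript start of Nr1d1 than to one of Thra. Those from +32.4 kb on lie downstream of the gene body. Thrb, a gene of 378 kb, had 18 regions with 2 in all libraries, or 4.52 per 100 kb. Nr3c2 held the most regions, 31, with 11 in all libraries over 346 kb. Nr3c1 had 18 regions with 4 in all libraries, Fkbp5 21 with 6, Hsd11b1 9 with 2, Dio2 5 with 1, and Dio3 3 with none.

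**Figure D1:**
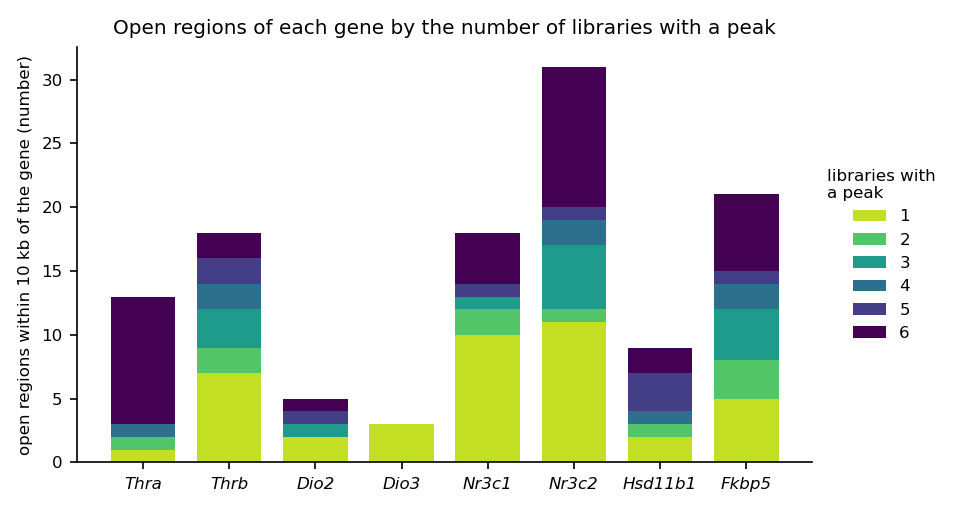
Number of merged regions at each of the 8 genes (horizontal axis) by the number of libraries, 1 to 6, that had a peak there (stacked colours). The Thra window stands out by its share of regions shared by all libraries (10 of 13), some of which lie nearer to Nr1d1. The 3 Dio3 regions were each found in 1 library.

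In total 36 of the 118 regions (30.5%) had a peak in all 6 libraries, against 28.8% of the regions of the genome. Another 41 (34.7%) were found in a single library, against 30.4% over the genome. Of the regions within 1 kb of an annotated transcript start of the gene itself, 10 of 22 were present in all libraries, with a median of their mean ranks of 51.2. The 2 regions at a transcript start of another coding gene were both present in all libraries, with a median of 91.2. Of the 94 regions elsewhere in the windows, 24 were present in all libraries, with a median mean rank of 9.45. Most regions (91) lay in introns, 12 lay upstream, 9 downstream, 3 in untranslated exons, 2 in coding exons and 1 in an exon of a non-coding transcript.

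The strongest peak of each gene was placed by its rank among the peaks of its library. Nr3c2 ranked at 98.2 and 96.8 for Input, 97.8 and 95.7 for Myc and 97.3 and 98.0 for PCM1. Fkbp5 ranked at 98.2 and 96.0, 99.5 and 98.9, and 95.9 and 94.9 in the same order. Thra, with 93.5 to 96.6, and Nr3c1, with 89.8 to 96.7, followed. The Thra rank came in every library from 1 of the regions at +32.4, +33.3 and +34.9 kb, downstream of the gene and nearer to Nr1d1, whereas the strongest region at a Thra start had a mean rank of 81.9. Hsd11b1 ranked between 84.8 and 92.3, in every library at a region -9.1 kb from its start that lies at the start of G0s2, and Thrb between 81.8 and 92.4, and the ranges of these genes overlapped. Dio2, which makes active triiodothyronine, was lower than all of these in every library, at 73.5 and 56.9, 68.2 and 66.9, and 50.9 and 59.6. Dio3, which inactivates the hormone, was lowest, with ranks of 7.24, 0.218 and 7.32 in the first library of each group and no peak in the second.

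Most protein-coding genes have a peak of high rank, so the ranks were also set against those genes. The median strongest peak of the 8 genes ranked at 90.5 to 94.4 by library, and that of all coding genes at 84.0 to 91.1. The 8 genes also held more peaks, with a median of 5 to 10 by library against 2 to 4 for all coding genes. A strongest peak is picked from all peaks of a window, and these medians were not matched for the number of peaks. Of the coding genes, 28.9% to 32.4% ranked below Dio2 in a given library and 0% to 21.4% below Dio3. Fkbp5 stood above 96.4% and 90.9% of coding genes in Myc and above 76.2% to 84.7% in the other libraries. Thrb stood above 66.0% and 68.0% in PCM1 and above 41.8% to 46.8% elsewhere. In both cases the ranges of the group named and of the others did not overlap. Of all coding genes, 24.4% ranked higher in both Myc than in both Input libraries and 51.2% higher in both Myc than in both PCM1 libraries. For PCM1, 4.65% of coding genes ranked higher in both PCM1 than in both Input libraries and 10.1% higher than in both Myc libraries. No test was made of these ranks, and for 2 groups of 2 libraries a two-sided exact permutation test has no p below 0.33.

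**Figure D2:**
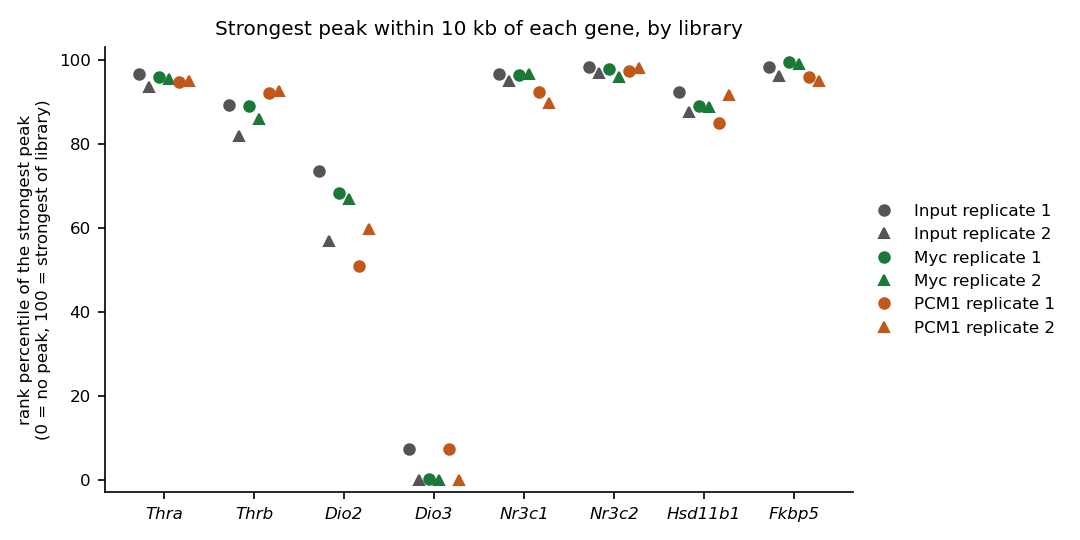
Rank of the strongest peak at each gene within its library (vertical axis, percentile by q-value, 100 is strongest, 0 is no peak), with 1 point per library coloured by group. Dio2 and Dio3 lie below the other 6 genes in all 6 libraries, and the Thrb points of PCM1 (92.1 and 92.4) lie above those of Input and Myc.

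Signal was compared between groups at the 36 regions with a peak in all libraries. The remaining 82 regions have no value in at least 1 library and were not tested. The value compared was the number of fragments stacked at the peak summit (pileup) divided by the median pileup of the library over 48841 such regions of the genome, called the relative pileup below. Regions are named by gene and by the distance of the summit from the 5′ end of the gene along its strand. Differences are on the log2 scale with their standard error (SE) and a Benjamini-Hochberg adjusted p from limma, fitted over all of these regions with a threshold of 0.05. The libraries are of bulk nuclei, which the study describes as mainly cardiomyocyte nuclei after this cushion, and fewer nuclei of a cell type and less accessible chromatin per nucleus cannot be told apart.

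Relative pileup was lower in Myc than in Input at 7 of the 36 regions and higher at none. Over the genome 13.3% of regions were called, 9.15% lower and 4.19% higher. PCM1 was lower than Input at 6 and higher at 1, against 10.8% of all regions called, 7.93% lower and 2.89% higher. Myc was higher than PCM1 at 4 and lower at 10, against 28.9% called, 15.1% higher and 13.8% lower. The called regions, 17 in all, lay at Thra, Thrb, Nr3c1, Nr3c2 and Fkbp5, and none lay at Dio2 or Hsd11b1. The median log2 difference over the 36 regions was -0.20 for Myc minus Input, -0.05 for PCM1 minus Input and -0.17 for Myc minus PCM1, beside -0.02, -0.04 and -0.00 over all regions. Over regions at a transcript start of any coding gene the medians were 0.07, -0.22 and 0.27.

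These calls depended on the measure. When the fold enrichment deposited by the authors, which is the pileup relative to the local background, was used in place of the pileup, only 2 of the 28 called differences remained past the threshold, and the calls over the genome fell from 6514 to 194 for Myc against Input, from 5281 to 278 for PCM1 against Input and from 14111 to 4057 for Myc against PCM1. Scaling each library to its genome-wide background in place of the median peak turned the balance of the Myc and Input calls from 2046 higher and 4468 lower to 4280 higher and 2372 lower, and that of PCM1 and Input from 1410 and 3871 to 2380 and 1975. That scaling moved the median log2 difference of all regions from -0.02 to 0.14 and from -0.04 to 0.08 in these comparisons and reversed none of the called differences at the 8 genes. With the Input and Myc libraries alone, all 7 differences between Myc and Input were called.

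**Figure D3:**
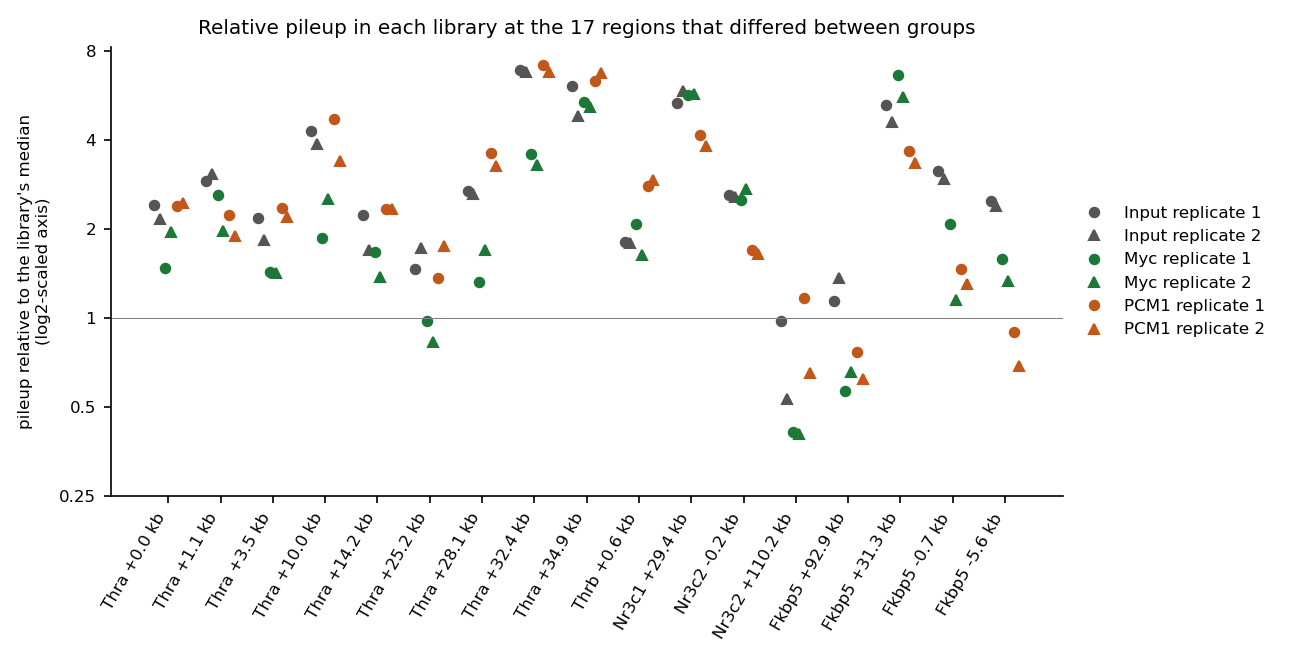
Relative pileup (vertical axis, log2-scaled, 1 is the median fitted region of the library) in each library at the 17 regions called in at least 1 comparison (horizontal axis), with 1 point per library, colour for the group and shape for the replicate. Both Myc points lie below the other 4 at Thra +10 and +32.4 kb, both PCM1 points lie above the others at Thrb +0.6 kb, and the 3 groups separate at Fkbp5 -5.6 kb.

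Thra encodes the main thyroid hormone receptor of the heart and lies on chromosome 11 (chr11:98740638-98769006, plus strand, mm10). All 10 of its fitted regions had a log2 difference below 0 between Myc and Input, with a median of -0.45, and 4 were called lower. Against PCM1, 8 of the 10 were called lower in Myc. Over the genome 9.15% and 13.8% of regions were called lower in these comparisons. The 10 regions are neighbours in 1 window of 48.4 kb and are not replicates of each other. The clearest difference lay downstream of the gene, at Thra +32.4 kb (chr11:98772835-98773285), nearer to a transcript start of Nr1d1 than to one of Thra. Its relative pileup was 6.90 and 6.80 for Input, 3.59 and 3.30 for Myc and 7.17 and 6.83 for PCM1. Both Myc libraries lay near the same low level and did not overlap the other 4. Myc was 1.99-fold lower than Input (log2 difference -0.99, SE 0.12, adjusted p = 6.80e-08 by limma) and lower than PCM1 by about the same amount (-1.02, adjusted p = 2.45e-08). The fold enrichment at this summit was 6.51 and 7.16 for Input, 4.51 and 3.98 for Myc and 6.01 and 5.64 for PCM1, again lowest in Myc. With that measure neither difference was called (adjusted p = 0.213 from Input and 0.0929 from PCM1 by limma).

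A second Thra region, Thra +10 kb (chr11:98750392-98751855), lay in an intron. It had a relative pileup of 4.31 and 3.90 for Input, 1.87 and 2.53 for Myc and 4.73 and 3.41 for PCM1. Myc was below every other library here too, 1.88-fold lower than Input (log2 difference -0.91, SE 0.16, adjusted p = 0.000116) and lower than PCM1 (-0.89, adjusted p = 7.77e-05). The 200 bases centred on the summits of these 2 regions are shown because they carry the largest called differences of Myc from Input outside annotated exons at Thra. They are written 5′ to 3′ on the plus strand from the GRCm38.p6 genome (mm10), at chr11:98772934-98773133 and chr11:98750547-98750746, and have no capitals because none of the 9 short motifs searched was found in them.
Thra +32.4 kb: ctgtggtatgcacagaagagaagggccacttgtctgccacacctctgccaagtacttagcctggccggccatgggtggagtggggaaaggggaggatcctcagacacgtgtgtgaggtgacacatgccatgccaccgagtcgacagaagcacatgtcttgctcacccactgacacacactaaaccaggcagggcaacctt
Thra +10 kb: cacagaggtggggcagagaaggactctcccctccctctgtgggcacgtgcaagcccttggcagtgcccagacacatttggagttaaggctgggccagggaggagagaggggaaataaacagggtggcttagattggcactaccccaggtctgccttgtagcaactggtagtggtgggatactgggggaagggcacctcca

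The 3′ end of Thra also differed, at +25.2 and +28.1 kb. Both regions lie nearer to a transcript start of Nr1d1 than to one of Thra, so assignment to Thra is by position in its window only. Thra +28.1 kb, in an untranslated exon (chr11:98768418-98769086), had a relative pileup of 2.69 and 2.63 for Input, 1.33 and 1.70 for Myc and 3.63 and 3.28 for PCM1. Myc was lower than Input (log2 difference -0.83, SE 0.17, adjusted p = 0.000971, and 0.0510 without Myc 1) and 2.3-fold lower than PCM1 (-1.20, adjusted p = 2.25e-06). Thra +25.2 kb had 1.47 and 1.73 for Input, 0.978 and 0.830 for Myc and 1.37 and 1.76 for PCM1, with Myc lowest (-0.82 from Input, adjusted p = 0.0151, and -0.78 from PCM1, adjusted p = 0.0109). These calls were lost without Myc 2 (adjusted p = 0.134 and 0.0977), the first also without Input 2 (0.213) and with background scaling (0.0557), and the second also without PCM1 2 (0.108).

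At the start of Thra the groups stood in another order. For Thra +1.1 kb (chr11:98741584-98742379), the strongest region at a transcript start of the gene, the relative pileup was 2.91 and 3.07 for Input, 2.61 and 1.98 for Myc and 2.23 and 1.90 for PCM1. Input was the highest and the 2 enriched groups overlapped. PCM1 was lower than Input (log2 difference -0.54, SE 0.18, adjusted p = 0.0425), a call that was lost without Input 1 (0.133), Input 2 (0.254), Myc 1 (0.0505) or PCM1 2 (0.184) and with quantile or background scaling (0.0892 and 0.132). Of the other fitted Thra regions, those at the most 5′ start, at +3.5 kb and at +14.2 kb were lower in Myc than in PCM1 (-0.51, -0.68 and -0.62, adjusted p = 0.0356, 0.00737 and 0.0155). The first of these was lost without Myc 1 (0.363) or either PCM1 library (0.0674 and 0.0880) and with background scaling (0.0598), and the third without Myc 2 (0.159). Thra +33.3 kb, with relative pileups of 5.57 to 6.99, was called in no comparison. Thra +34.9 kb, at the transcript start of the neighbouring clock gene Nr1d1, was 1.24-fold lower in Myc than in PCM1 (adjusted p = 0.0465), and this was lost without any 1 of the Myc and PCM1 libraries (adjusted p = 0.0560 to 0.192) and with quantile or background scaling (0.0605 and 0.113). The median rank of the cardiomyocyte genes was also lowest in the Myc libraries. Its part in the Thra differences was not tested.

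Thrb encodes the second thyroid hormone receptor and lies on chromosome 14 (chr14:17660261-18038090, plus strand). Its strongest region, Thrb +0.6 kb (chr14:17660161-17661259), covers the most 5′ transcript start. The relative pileup there was 1.81 and 1.8 for Input, 2.09 and 1.64 for Myc and 2.8 and 2.93 for PCM1. Both PCM1 values lay above all others, and Input and Myc overlapped. PCM1 was 1.58-fold higher than Input (log2 difference 0.66, SE 0.18, 95% interval 0.29 to 1.04, adjusted p = 0.0149), the only called increase of PCM1 over Input among the 36 regions. Myc was lower than PCM1 (-0.63, adjusted p = 0.00845) and close to Input (0.03, adjusted p = 0.933). The difference from Input was lost without Input 1 (0.0783), Input 2 (0.111) or PCM1 2 (0.0535), and the one between Myc and PCM1 without Myc 2 (0.147). The latter was kept with fold enrichment (-0.58, adjusted p = 0.0402), for which the values were 12.4 and 11.8, 12.3 and 11.4, and 14.6 and 15.4.

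The bases around the Thrb +0.6 kb summit that lie outside exons, chr14:17660760-17660891 on the plus strand, are shown because the region held the 1 called increase of PCM1 over Input. Capitals mark AGGTCA, the half-site that thyroid hormone receptors and many other nuclear receptors bind, and GGGCGG, the core bound by SP factors.
Thrb +0.6 kb: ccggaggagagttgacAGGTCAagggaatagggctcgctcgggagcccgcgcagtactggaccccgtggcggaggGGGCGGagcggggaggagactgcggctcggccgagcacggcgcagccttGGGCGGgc

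Away from its first start, Thrb had weak and variable peaks. Thrb +83.0 kb had a relative pileup of 0.522 and 0.60 for Input, 0.435 and 0.617 for Myc and 0.433 and 0.483 for PCM1, with no call. Myc overlapped both other groups, and both PCM1 values lay below those of Input. Thrb -1.1 kb, also within reach of the first start, had relative pileups of 0.767 to 1.34 in 5 libraries and no peak in PCM1 2. Annotated starts of Thrb lie 303 and 321 kb into the gene, and no library had a peak within 1 kb of them. Intronic regions between +244.4 and +307.3 kb were seen in Input or Myc only. The strongest of these, Thrb +307.3 kb, ranked at 64.3 in Input 1 and at 60.1 and 64.0 in Myc, and had no peak in Input 2 or PCM1. Thrb +252.4 kb was found in both Input libraries (24.8 and 39.4) and in no other, and Thrb +244.4 kb in both Myc libraries (14.3 and 13.8) and in no other.

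The deiodinase genes gave low signal. Dio2 lies on the minus strand of chromosome 12 (chr12:90724552-90738438), and its 1 region shared by all libraries, Dio2 -2.2 kb (chr12:90740478-90740819), had a relative pileup of 0.637 and 0.667 for Input, 0.652 and 0.532 for Myc and 0.50 and 0.621 for PCM1. The groups overlapped and no difference was called (adjusted p = 0.820, 0.719 and 0.881). The 95% intervals ran from -0.80 to 0.51 for Myc minus Input, -0.88 to 0.42 for PCM1 minus Input and -0.57 to 0.73 for Myc minus PCM1 on the log2 scale, so changes of moderate size are not excluded at this depth. The region at the Dio2 start ranked at 63.3 in Input 1, 49.3 and 66.9 for Myc and 19.4 and 41.1 for PCM1, and was not found in Input 2. Dio2 +8.6 kb, in a coding exon, ranked at 58.9 in Input 1 and at 51.0 and 50.7 in Myc and was not found in the other 3 libraries.

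Dio3 (chr12:110279068-110281097, plus strand) had 3 regions, each in a different library. These were at -9.8 kb in Input 1, at -0.3 kb in Myc 1 and at the transcript start in PCM1 1, with summit pileups of 16, 7 and 7 fragments. Peaks of that height are near the lower end of their lists, and accessibility at Dio3 was not detectable in the other 3 libraries.

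**Figure D4:**
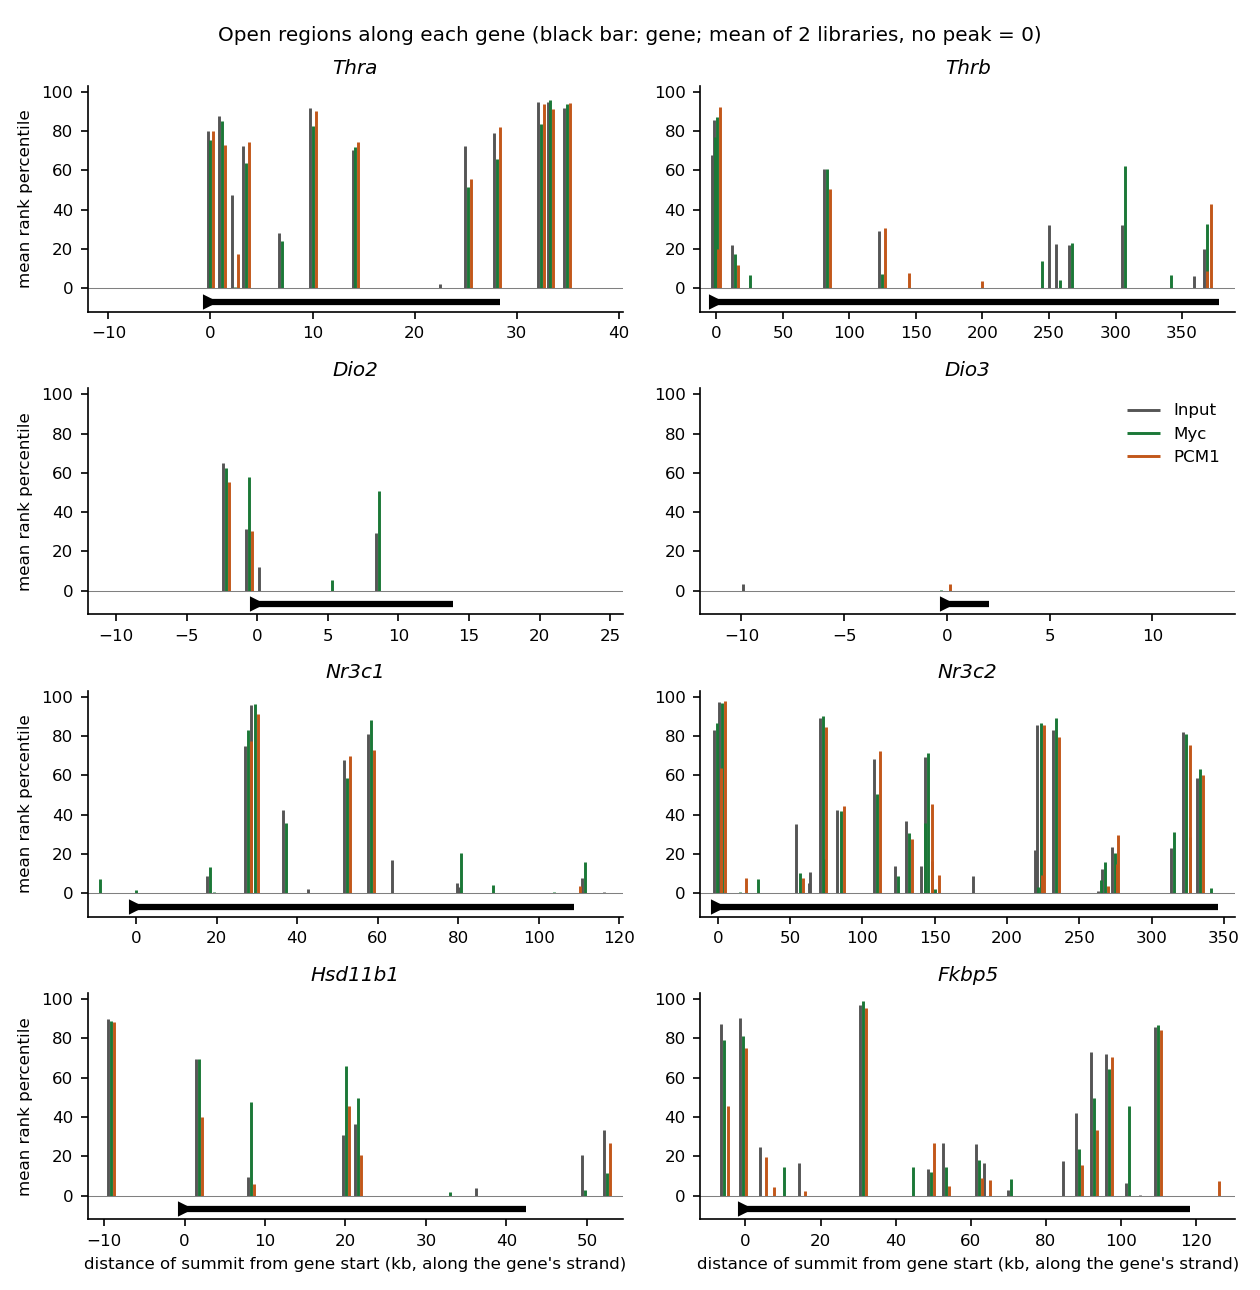
Position of each region (horizontal axis, kb from the 5′ end of the gene along its strand, with the gene as a black bar) against its rank percentile averaged over the 2 libraries of a group (vertical axis, 0 where no peak was called), in 1 panel per gene. Stems of the 3 groups are set slightly apart in position so that each can be seen, and the sparse signal of Thrb past its first start contrasts with the close spacing at Thra.

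Nr3c1, on the minus strand of chromosome 18 (chr18:39410545-39519421), encodes the glucocorticoid receptor. Its strongest region, Nr3c1 +29.4 kb (chr18:39488920-39490846), covers internal transcript starts. The relative pileup was 5.35 and 5.87 for Input, 5.67 and 5.72 for Myc and 4.17 and 3.83 for PCM1. The PCM1 libraries lay below the other 4, and Input and Myc overlapped. PCM1 was lower than Input (log2 difference -0.49, SE 0.12, adjusted p = 0.00635) and Myc was 1.43-fold higher than PCM1 (0.51, adjusted p = 0.00132), whereas Myc and Input differed by 0.02 (adjusted p = 0.926). The difference of PCM1 from Input was lost without Input 2 (0.124) and with quantile or background scaling (0.0810 and 0.0637).

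The other regions of Nr3c1 gave no call. Nr3c1 +27.8 kb, also at transcript starts, had a relative pileup of 2.65 and 2.13 for Input, 2.91 and 2.64 for Myc and 2.60 and 2.41 for PCM1. Nr3c1 +58.4 kb had 0.947 and 1.13, 1.35 and 1.64, and 1.23 and 0.690, and its difference of 0.69 between Myc and PCM1 lay at the threshold (adjusted p = 0.050, not called). Both Myc libraries lay above the other 4 there, and Input and PCM1 overlapped. A peak at the most 5′ start of Nr3c1 was found in Myc 2 only, and Nr3c1 +80.6 kb had peaks in both Myc libraries and in neither PCM1 library. The median ranks of fibroblast and immune genes were lower in both PCM1 libraries, the 2 shallowest by background pileup, than in the other 4. Single genes varied. Col3a1 followed the fibroblast median (33.5 and 12.4 in PCM1, 51.5 to 61.2 elsewhere), whereas Col1a1 did not (95.8 and 97.4, against 93.5 to 97.3). The part of these cell types or of depth in the lower PCM1 signal at this and the following genes was not tested.

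Nr3c2 encodes the mineralocorticoid receptor, which in heart also binds glucocorticoids, and lies on the plus strand of chromosome 8 (chr8:76899442-77245012). Its strongest region, Nr3c2 +2.8 kb (chr8:76901850-76902628), had a relative pileup of 6.30 and 6.23 for Input, 5.61 and 4.57 for Myc and 5.53 and 6.14 for PCM1. Input was highest and the enriched groups overlapped, and no difference was called (-0.31, -0.10 and -0.20 for Myc minus Input, PCM1 minus Input and Myc minus PCM1, adjusted p = 0.0808, 0.636 and 0.206). At the most 5′ start, Nr3c2 -0.2 kb (chr8:76898878-76899788), which is shared with the non-coding gene Gm10649, the values were 2.62 and 2.57, 2.52 and 2.74, and 1.70 and 1.66. Here PCM1 was below the other 4 libraries. It was lower than Input (log2 difference -0.63, SE 0.17, adjusted p = 0.0155, but 0.102 and 0.112 without Input 1 or Input 2 and 0.0629 with background scaling) and lower than Myc (Myc minus PCM1 0.65, adjusted p = 0.00450, and 0.0613 without Myc 2), and Myc and Input differed by 0.02 (adjusted p = 0.956).

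Within the introns of Nr3c2, the region at +110.2 kb (chr8:77009403-77009846) had a relative pileup of 0.982 and 0.533 for Input, 0.413 and 0.404 for Myc and 1.17 and 0.655 for PCM1. The Myc libraries were lowest, while the libraries of the other groups differed within their group by nearly as much as the groups did. Myc was lower than PCM1 (log2 difference -1.10, SE 0.34, adjusted p = 0.0140), which held with fold enrichment (-0.87, adjusted p = 0.0299) but not without Myc 1 (0.0690), Myc 2 (0.0709) or PCM1 1 (0.216). Nr3c2 +72.8 kb, the strongest intronic region away from a start, had 1.88 and 1.87, 1.78 and 2.02, and 1.4 and 1.66 and was not called. Nr3c2 +223.1 kb, the next strongest, ranged from 1.34 to 2.1 with overlapping groups and was not called. The 3 regions at +124.8, +143.0 and +315.5 kb had peaks in both Myc libraries and in neither PCM1 library.

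Hsd11b1 (chr1:193221634-193264075, minus strand) encodes the enzyme that regenerates active corticosteroid inside the cell. No library had a peak within 1 kb of its most 5′ start. Signal lay instead at internal starts about 20 kb into the gene, where Hsd11b1 +20.1 kb ranked at 61.4 in Input 1, 71.1 and 61.2 for Myc and 34.1 and 57.1 for PCM1 and was not found in Input 2. Hsd11b1 +1.8 kb, in an intron, had a relative pileup of 0.637 and 0.90 for Input, 0.717 and 0.638 for Myc and 0.367 and 0.552 for PCM1. The PCM1 libraries were lowest, but the difference from Input was not called (log2 difference -0.75, 95% interval -1.42 to -0.09, adjusted p = 0.140). The strongest peak of the window, at -9.1 kb, lay at the transcript starts of G0s2 and Lamb3, had values of 2.43 and 2.47, 2.15 and 2.09, and 2.1 and 2.97, and was not called.

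Fkbp5 (chr17:28399094-28517527, minus strand) held the strongest peak of the 8 genes in both Myc libraries and the largest differences at transcript starts. Fkbp5 +31.3 kb (chr17:28485529-28486461), at an internal start, had a relative pileup of 5.27 and 4.60 for Input, 6.65 and 5.60 for Myc and 3.67 and 3.34 for PCM1. The groups did not overlap, with Myc highest and PCM1 lowest. Myc was 1.74-fold higher than PCM1 (log2 difference 0.80, SE 0.13, adjusted p = 1.08e-05), PCM1 was lower than Input (-0.49, adjusted p = 0.0101) and Myc and Input differed by 0.31 (adjusted p = 0.109). With fold enrichment both called differences changed sign, to -0.05 (adjusted p = 0.824) and 0.11 (adjusted p = 0.765). The call between PCM1 and Input was also lost without Input 1 (0.147) or PCM1 2 (0.0503) and with quantile or background scaling (0.0891 and 0.0723).

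The most 5′ start of Fkbp5 gave another order. Fkbp5 -0.7 kb (chr17:28517444-28518513) had a relative pileup of 3.15 and 2.97 for Input, 2.09 and 1.15 for Myc and 1.47 and 1.31 for PCM1. Both Input libraries lay above the other 4, and Myc and PCM1 overlapped. Myc was 1.97-fold lower than Input (log2 difference -0.98, SE 0.22, adjusted p = 0.00151), but without Myc 2 the difference was -0.55 (adjusted p = 0.153). PCM1 was lower than Input by -1.14 (adjusted p = 0.000455), and Myc and PCM1 differed by 0.16 (adjusted p = 0.622). With fold enrichment neither difference from Input was called (adjusted p = 0.685 for Myc and 0.786 for PCM1). Those values were 10.9 and 10.9 for Input, 11.7 and 7.37 for Myc and 8.01 and 8.26 for PCM1, so Myc 1 lay above Input.

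Sequences at the Fkbp5 starts and at the most 5′ start of the mineralocorticoid receptor gene are shown because PCM1 was lower than Input at all 3, and that of Nr3c2 +110.2 kb because its difference held with both measures. They are written 5′ to 3′ on the strand of the gene, at chr17:28486150-28486337 (minus), chr17:28518090-28518289 (minus), chr8:76899141-76899340 (plus) and chr8:77009512-77009711 (plus) of mm10, with exon bases left out. Capitals mark GGGCGG or its reverse complement CCGCCC, the glucocorticoid response core ACANNNTGT, and the AP-1 motif TGANTCA.
Fkbp5 +31.3 kb: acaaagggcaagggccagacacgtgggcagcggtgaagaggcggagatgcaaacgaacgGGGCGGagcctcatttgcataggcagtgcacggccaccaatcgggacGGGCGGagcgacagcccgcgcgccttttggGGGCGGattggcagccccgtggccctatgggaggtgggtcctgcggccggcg
Fkbp5 -0.7 kb: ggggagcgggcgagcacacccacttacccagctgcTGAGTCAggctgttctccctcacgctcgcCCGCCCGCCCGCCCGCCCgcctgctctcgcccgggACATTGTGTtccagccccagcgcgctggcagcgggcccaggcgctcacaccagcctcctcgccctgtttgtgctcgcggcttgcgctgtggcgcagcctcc
Nr3c2 -0.2 kb: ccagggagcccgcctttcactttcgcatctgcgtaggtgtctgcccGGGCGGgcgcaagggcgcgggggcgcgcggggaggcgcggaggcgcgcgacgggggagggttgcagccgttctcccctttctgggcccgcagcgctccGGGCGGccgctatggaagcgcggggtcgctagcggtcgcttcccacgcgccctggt
Nr3c2 +110.2 kb: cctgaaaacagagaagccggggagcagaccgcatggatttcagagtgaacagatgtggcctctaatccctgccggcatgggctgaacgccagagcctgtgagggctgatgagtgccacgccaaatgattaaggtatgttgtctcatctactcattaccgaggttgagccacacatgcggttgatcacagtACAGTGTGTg

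Upstream of the gene, Fkbp5 -5.6 kb (chr17:28522563-28523604) lay at the starts of the non-coding genes E230001N04Rik and Gm20109. It had a relative pileup of 2.5 and 2.40 for Input, 1.59 and 1.34 for Myc and 0.90 and 0.690 for PCM1, with no overlap between the groups. PCM1 was 3.11-fold lower than Input (log2 difference -1.63, adjusted p = 5.59e-06), the largest difference of the 36 regions in any comparison. Myc was lower than Input (-0.75, SE 0.23, adjusted p = 0.0222, but 0.0674 to 0.191 when any 1 Input or Myc library was left out and 0.0742 with background scaling) and higher than PCM1 (0.89, adjusted p = 0.00277, and 0.0625 without Myc 1). Fkbp5 +92.9 kb, in an intron, had 1.14 and 1.37 for Input, 0.565 and 0.660 for Myc and 0.767 and 0.621 for PCM1. The Myc signal was lower than that of Input (-1.03, SE 0.29, adjusted p = 0.0140), which was lost without Input 1 (0.0509), Input 2 (0.203) or Myc 1 (0.133), and the difference of PCM1 from Input (-0.86, adjusted p = 0.0514) was not called. Fkbp5 +109.9 kb, with values from 1.26 to 1.77, was not called.

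**Figure D5:**
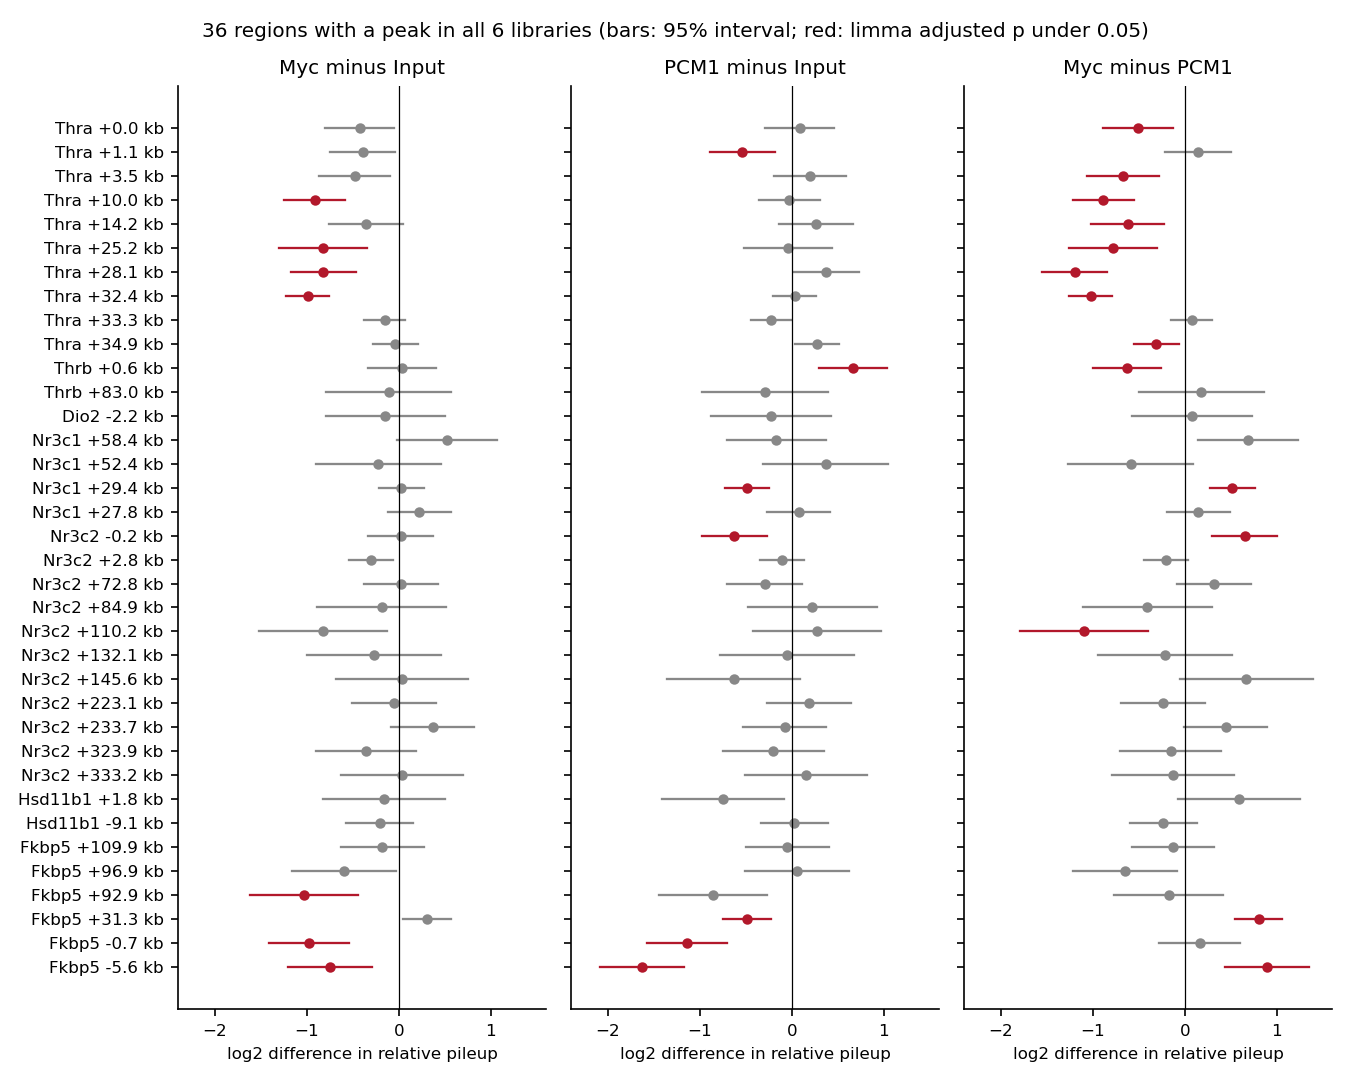
Log2 difference of relative pileup (horizontal axes) at the 36 regions with a peak in all 6 libraries (vertical axis) for Myc minus Input, PCM1 minus Input and Myc minus PCM1, with 95% intervals from limma and called differences in red. The called Thra differences are below 0, the widest shift is Fkbp5 -5.6 kb in PCM1 minus Input (-1.63), and Thrb +0.6 kb is the 1 region called higher in PCM1 than in Input.

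Presence and absence of peaks separated the groups at few of the regions. A peak in both libraries of 1 group and in neither library of another was found at 14 of the 118 regions (11.9%), against 13.3% of regions over the genome. Such a peak was found in Myc and not in PCM1 at 11 regions (9.32%, against 8.69%), in Input and not in PCM1 at 4 (background 4.51%), in Myc and not in Input at 2 (2.38%), in Input and not in Myc at 1 (1.91%) and in PCM1 and not in Myc at 1 (1.09%). None was found in PCM1 and not in Input (background 0.496%). These shares lie near those of the genome, and the PCM1 libraries were the 2 shallowest by background pileup. At Fkbp5 the regions at +10.3, +70.7 and +102.1 kb were found in both Myc libraries and in neither PCM1 library, and the region at +64.4 kb the other way round.

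Short motifs were searched on both strands in the 200 bases around each summit. ACANNNTGT was found in 9 of the 118 windows (7.63%), against 7.33% of 169876 windows over the genome, and AGGTCA in 18 (15.3%, against 16.0%). The 9 windows were at Thrb +83.0 kb, Nr3c1 +19.2 and +111.6 kb, Nr3c2 +17, +28.1 and +110.2 kb, Hsd11b1 +1.8 kb, and Fkbp5 -0.7 and -5.6 kb. The MEF2 motif TAAAAATA was found in 6 windows (5.08%, against 3.24%), the GATA motif AGATAA in 11 (9.32%, against 12%), the TEAD motif GGAATG in 10 (8.47%, against 14.9%), the NKX2-5 motif TNAAGTG in 10 (8.47%, against 10.9%) and TGANTCA in 7 (5.93%, against 8.79%). GGGCGG was found in 16 (13.6%, against 11.2%) and the ETS motif CCGGAA in 4 (3.39%, against 5.12%). The member windows had a median GC content of 50.8%, against 51.0% over the genome. A match is a run of letters and not a bound site, and windows without a match draw no inference on a factor.

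The other genes of these pathways were read from 48 listed genes, of which 40 had a region at a transcript start in the fit. Myc was higher than Input at 2 and lower at 10, PCM1 was higher than Input at 0 and lower at 10, and Myc was higher than PCM1 at 8 and lower at 8. Among the start regions of all coding genes, 20.4%, 22.8% and 44.7% were called in these comparisons, in either direction. Shares by direction were not counted for start regions. The median log2 difference of those start regions was 0.07, -0.22 and 0.27, beside -0.10, -0.07 and 0.04 for the 40 fitted genes. In this scaling the median start region of all coding genes was thus lower in PCM1 than in Input, and that of the 40 fitted genes was lower by less. The difference between these medians was not tested. With fold enrichment, 1 of these 38 calls remained (Pdk4, Myc minus PCM1). With quantile normalization 27 were kept, with background scaling 28, and without 1 library 25 (Input 2) to 34 (PCM1 2). Of the thyroid hormone transporters and related genes, 2 of 6 could be fitted and neither was called. The Slc16a10 values were 4.42 and 4.67 for Input, 3.61 and 3.77 for Myc and 3.53 and 3.52 for PCM1.

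Among 12 receptor partners, coactivators and corepressors, Myc was higher than Input at Ncor1, a corepressor (log2 difference 0.48, adjusted p = 0.0202), and at Med1, a Mediator subunit that contacts nuclear receptors (0.69, adjusted p = 0.00380). Without Input 2 these became 0.285 and 0.243, and without Myc 1 they became 0.129 and 0.0596 in adjusted p, and Ncor1 was also lost without Myc 2 (0.112). PCM1 was lower than Input at the acetyltransferase gene Ep300 (-0.83, adjusted p = 0.000590, and 0.0658 without Input 2). Against PCM1, Myc was higher at Ncoa3, Ncor1, Med1 and Crebbp (0.39 to 0.84), with the sign at Ncor1 reversed under fold enrichment (-0.026) and its call lost with quantile normalization and without any 1 Myc or PCM1 library (adjusted p = 0.0727 to 0.152). The relative pileup at Crebbp was 2.79 and 2.3 for Input, 3.15 and 3.28 for Myc and 1.63 and 1.97 for PCM1, with no overlap between groups.

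Among thyroid hormone targets, 7 of 10 were fitted. Myh6, the alpha myosin heavy chain gene that thyroid hormone activates in heart, had a relative pileup of 12.8 and 14.1 for Input, 4.57 and 5.75 for Myc and 15.2 and 15.1 for PCM1. Signal in Myc was lower than in Input (log2 difference -1.39, adjusted p = 3.11e-13) and lower than PCM1 (-1.56, adjusted p = 1.64e-14). Myc was also lowest at the Thra regions at +10 and +32.4 kb. Both PCM1 libraries lay above both Input libraries at Myh6, whereas Input and PCM1 overlapped at these Thra regions. Myh6 is also one of the cardiomyocyte markers above. The glucose transporter gene Slc2a4 was lower in Myc than in Input (-0.43, adjusted p = 0.0408), which was lost without any 1 Input or Myc library and with quantile or background scaling (adjusted p = 0.0579 to 0.364). The calcium pump gene Atp2a2 and the transcription factor gene Klf9 were lower in PCM1 than in Input (-0.41, adjusted p = 0.0368, and -0.54, adjusted p = 0.00457, with a sign reversed to 0.10 under fold enrichment for Klf9). The Atp2a2 call was lost with quantile or background scaling and without Input 1, either Myc library or PCM1 1 (adjusted p = 0.0536 to 0.599), and that of Klf9 with quantile normalization and without Input 1 or PCM1 1 (0.0562 to 0.0711).

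Among 11 of 12 corticosteroid targets that could be fitted, Myc was lower than Input at 5 and higher at none, and PCM1 was lower at 3 and higher at none. Over the start regions of all coding genes, 20.4% and 22.8% were called in these comparisons, in either direction, so these shares are not a like measure for lower calls alone. Pdk4, a kinase that limits glucose oxidation, had a relative pileup of 11.6 and 12.3 for Input, 6.35 and 6.21 for Myc and 9.03 and 9.52 for PCM1, with Myc lowest (-0.93 from Input, adjusted p = 3.33e-09). Klf15, which represses hypertrophic growth, had 7.30 and 6.57, 4.54 and 3.89, and 6.50 and 5.38, also lowest in Myc (-0.72). The anti-inflammatory gene Tsc22d3 and the transcription factor gene Zbtb16 were lower in Myc than in Input as well (-0.76 and -0.74), as was the clock gene Per1 (-0.41). The Tsc22d3, Zbtb16 and Per1 calls were each lost without at least 1 Input or Myc library (adjusted p = 0.0502 to 0.357), and those of Tsc22d3 and Per1 also with background scaling (0.0634 and 0.124) and that of Per1 with quantile normalization (0.811). The signal inhibitor gene Errfi1 was lowest in PCM1, with 3.75 and 5.03, 4.67 and 4.79, and 2.5 and 2.93, and its call against Input was lost without Input 2 (0.149).

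All 8 steroid receptor chaperone and prereceptor genes were fitted. The heat shock cognate gene Hspa8 had a relative pileup of 13.2 and 13.6 for Input, 9.0 and 8.57 for Myc and 8.0 and 8.48 for PCM1, so both enriched groups lay below Input (-0.61, adjusted p = 5.10e-06, and -0.70, adjusted p = 1.34e-06). The Myc difference at Hspa8 was lost with quantile normalization (0.648). Stip1 and H6pd, which supplies the cofactor of the Hsd11b1 enzyme, were also lower in Myc (-0.42 and -0.50, with Stip1 at 0.084 under quantile normalization), and both calls were lost without Input 2 (adjusted p = 0.162) and with background scaling (0.106 and 0.0781). Hsp90aa1, Fkbp4 and Ptges3, which act in the receptor complex, were also lower in PCM1 (-0.54, -0.63 and -0.49), of which Hsp90aa1 was lost without Input 2 (0.121) and Ptges3 without either Input library or with quantile or background scaling (0.0615 to 0.0784). Hsp90aa1 had 5.87 and 7.07 for Input, 6.67 and 6.45 for Myc and 4.30 and 4.59 for PCM1, the order seen at the strongest start of the glucocorticoid receptor gene.

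For each gene with a fitted start region, the coding gene on another chromosome with the most similar start region over the 6 libraries was found, by the mean absolute difference of log2 values centred on their own mean. These were Pdia5 for Thra (0.0465), Dis3l for Thrb (0.0632), Cadps for Nr3c1 (0.0328), Slc25a12 for Nr3c2 (0.0164) and B4galt3 for Fkbp5 (0.0199). The median of this measure over all genes compared was 0.228 to 0.420.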

How the data were processed

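ATAC-seq peak lists of 6 libraries (Input, Myc and PCM1, 2 each) were used. According to the submitters' processing notes, the authors used FastQC 0.11.5, Bowtie2 2.3.3.1, Picard 2.2.1, bedtools 2.7.1, HOMER and MACS2 2.1.0.20160309 with mm10. The study's methods describe adapter trimming, removal of blacklisted regions, a Tn5 shift and peak calling per library at a q-value of 0.05. The authors deposited, for each peak, a fold enrichment (a ratio to local background) and a -log10 p and -log10 q-value at the summit. The integer score column was not used. No read counts were used here.

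The summit pileup was recovered from the deposited fold enrichment and -log10 p and was a whole number within 0.02 for 99.8% to 100% of peaks. Peaks were merged when they shared at least 1 base (169881 regions). Pileups at regions with a peak in all 6 libraries (48861, of which 48841 were fitted) were divided by the library median, log2-transformed and tested with limma 3.58.1 (R 4.3.3, trend, moderated two-sided test, 3 groups in 1 fit, Benjamini-Hochberg over all fitted regions). Fold changes are geometric means. A region of no peak means not detectable at the depth of that library. The procedure was tested on simulated data. Python 3.11.15, numpy 2.4.6, pandas 2.3.3, scipy 1.17.1, matplotlib 3.10.9 and samtools 1.23.1 were used. Sequences came from GRCm38.p6 and gene models from GENCODE M21.

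The genes, lists and tests were chosen with earlier results of these data known. For every gene the rule named the strongest region at a transcript start, the 2 other strongest regions, regions past the limma threshold, regions present in both libraries of a group and in neither of another, and 1 gene of most similar pattern. Thra +2.4, +7.0 and +22.8 kb and other weaker regions are given by counts. Alternatives were a q-value of 0.01, equal numbers of peaks, a 2 kb window, 50% coverage of a region, ranking or testing by fold enrichment, quantile normalization, background scaling, a mean pileup of at least 20, a replicate block and leaving out each library. The fit of the Input and Myc libraries alone was added after seeing the data. Replicate numbers did not pair the libraries: deviations from the group mean correlated at 0.00781, -0.00439 and 0.00564. Some listed genes are not reported here by name.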

Additional observations from a re-analysis of the deposited data

How the results depend on the processing

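The counts of member regions, and of those in all libraries, stayed within 1.5 times the values given under every alternative. The median rank of the strongest peaks was 92.3 and became 82.7 when ranked by fold enrichment and 89.1 with a 2 kb window. Regions in both libraries of 1 group and none of another numbered 14, and 25 to 32 when 1 library was left out, where a single library can define a group. With fold enrichment, 0, 0 and 2 regions at the 8 genes were called for Myc against Input, PCM1 against Input and Myc against PCM1, and 194, 278 and 4057 over the genome. Background scaling left 4 called regions for PCM1 against Input. Leaving out 1 library gave 4 to 8, 3 to 8 and 9 to 14 called regions at the 8 genes, and 2381 to 8556, 1516 to 4706 and 8251 to 13226 over the genome, with the lone library of a group assumed to vary like the others. A replicate block left 7, 7 and 14 calls at the 8 genes (6669, 5456 and 14228 over the genome) and changed no call there. Of the 28 called differences, 24 were kept with quantile normalization, 20 with background scaling, and 19 to 25 without 1 library. Signs reversed with fold enrichment at Fkbp5 +31.3 kb (0.11 for PCM1 minus Input, -0.054 for Myc minus PCM1), Ncor1 (-0.026, Myc minus PCM1), Klf9 (0.10), Per1 (0.17) and Pdk4 (0.18, all PCM1 minus Input), and with quantile normalization at Stip1 (0.084, Myc minus Input), and the cause was not tested.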
